A study of Homo sapiens with 18 samples.

Results

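Gene expression was compared between spheroidal aggregates of DAOY and of U87 mg that had not been exposed to an electric field. DAOY is an established human line from a desmoplastic cerebellar medulloblastoma, and U87 mg is an established human line from a glioblastoma. The comparison used 6 of the 18 RNA-SEQ samples of the series, 3 DAOY and 3 U87 mg samples labelled 0 h, and the other 12 samples were of such aggregates after 2 h or 8 h at 250 V/m. Both groups had been grown as aggregates in DMEM with 10% FBS, seeded in a channel in medium mixed with growth factor reduced Matrigel and kept at 0 V/m. Each sample pooled the cells of 3 channels, and of 4 biological replicates per group the 3 with the best quality control were sequenced. Each tumour type was represented by 1 line, so that line and tumour type cannot be told apart, and the replicates are cultures of a line and not patients. The p-values therefore measure the spread between these cultures, part of which may be technical. The sample labels and the study's methods differ in how many cells were seeded per aggregate. Transcripts of the chromosomes X and Y were left out, and the values of transcripts with the same gene name were summed.

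Medulloblastoma arises in the cerebellum and is divided by expression into WNT, SHH, group 3 and group 4 tumours, of which desmoplastic tumours usually belong to the SHH group. Hedgehog ligands act through the receptor PTCH1, which releases SMO and activates the GLI transcription factors, and this pathway drives the growth of granule cell precursors. Glioblastoma is a glial tumour, for which proneural, classical and mesenchymal expression patterns have been described. The mesenchymal pattern includes CD44, CHI3L1 and MET, and hypoxia, invasion of the matrix and inflammatory cytokines are frequent features of these tumours.

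The total of estimated counts lay between 9194470 and 11508606 per DAOY sample and between 10690206 and 15610886 per U87 mg sample. Transcripts of the mitochondrial genome took 2.92 to 5.70% of the counts in DAOY and 4.17 to 5.11% in U87 mg. The correlation of log2 counts scaled to the library size was 0.953 to 0.969 between DAOY samples, 0.973 to 0.988 between U87 mg samples and 0.725 to 0.760 between the lines. The first principal component, with 85.8% of the variance, separated the lines. Along the second, with 7.35%, replicate 0 of each line stood apart from replicates 1 and 2 on the same side. In replicate 0 the collagens were lower than in the other samples of the same line, with a median difference of -0.75 on the log2(TPM + 1) scale in both lines (TPM are counts scaled to transcript length and library size), and chemokines and cytokines were higher, with a median difference of 1.27 in DAOY and 0.31 in U87 mg. List counts that moved by over 1.5 times without both of these samples are given with that value.

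The lines differed in a large part of the genes measured. Of 14653 genes tested with edgeR's quasi-likelihood test, 3186 were higher in DAOY (21.7%) and 2455 were higher in U87 mg (16.8%). The counts of called members in each gene list below are to be read beside these shares. A gene was called when its adjusted p (Benjamini-Hochberg) was below 0.05 and it differed at least 2-fold, and this adjusted p is the one given throughout. In all, 8395 genes had an unadjusted p under 0.05. Fold changes are given as log2 of DAOY over U87 mg with their standard error, so that a positive value is higher in DAOY, and the median over all genes tested was 0.05, beside which the medians of gene lists can be read. They were fitted to counts, and a ratio of TPM can differ from them where the lines use transcripts of different length. The median size of a called difference was 2.38 for genes higher in DAOY and 1.75 for genes higher in U87 mg. Of the 5641 genes called, 5264 had samples that did not overlap between the lines, and this held for every called gene named here except PIEZO1. Among all 14653 genes tested, called or not, 8360 did not overlap (57.1%), so that a lack of overlap is common in these data. The fitted difference was at least 32-fold for 790 genes higher in DAOY and 186 genes higher in U87 mg. These counts include genes with 0 counts in one line, for which the fitted value is above the lower bound that the counts allow. PRAME, for example, was fitted at 8213-fold and is given below as at least 1131-fold.

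**Figure D1:**
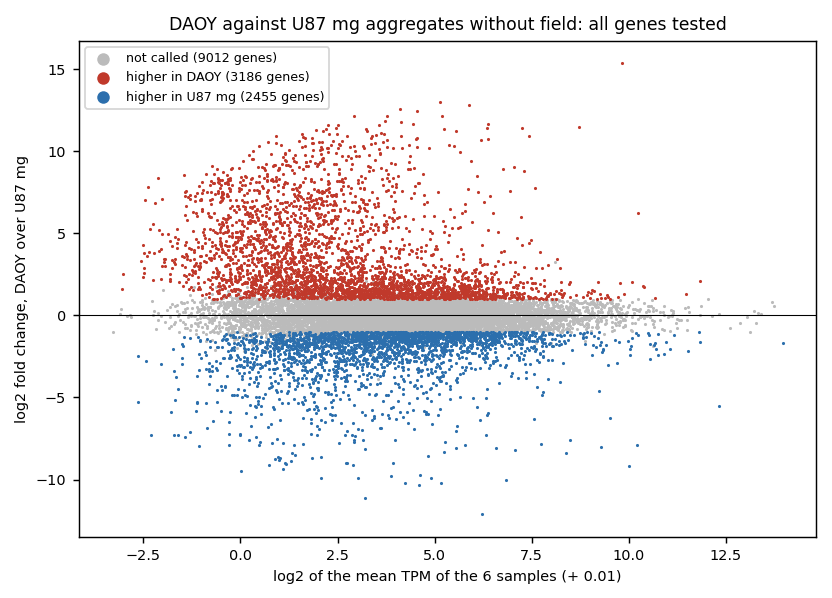
Each point is 1 of the 14653 genes tested, plotted by the log2 of its mean TPM over the 6 samples (horizontal axis) and its log2 fold change of DAOY over U87 mg (vertical axis), with genes called higher in DAOY in red and in U87 mg in blue. Large differences above 5 are more frequent upward, with 790 genes at least 32-fold higher in DAOY and 186 in U87 mg.

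Genes that were detected in DAOY and nearly silent in U87 mg were also more frequent than the reverse. Of 10589 genes with a mean of at least 5 TPM in DAOY, 284 had at most 3 estimated counts over the 3 U87 mg samples together, and 160 of these were protein coding by their most abundant transcript. Of 10157 genes at this level in U87 mg, 103 had at most 3 counts over the 3 DAOY samples, and 26 of these were protein coding. The total counts reached higher values in U87 mg than in DAOY.

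The same differences were present in the samples of the later times, which were separate cultures exposed to the field. At 2 h, 3330 of 14443 genes were higher in DAOY (23.1%) and 2543 were higher in U87 mg (17.6%). At 8 h, 3365 of 14600 genes were higher in DAOY (23.0%) and 2596 were higher in U87 mg (17.8%). Of the genes higher in DAOY at 0 h, 3025 were tested at 2 h, where 3017 had the same direction and 2622 were called again, and 3001 were tested at 8 h, where 2995 had the same direction and 2672 were called again. Of the genes higher in U87 mg at 0 h, 2347 of 2356 kept the direction at 2 h and 1925 were called again, and 2342 of 2369 kept it at 8 h and 1961 were called again. At either time 0 genes were called in the opposite direction by edgeR. These later samples differ from those at 0 h in field and time in the channel, but each comparison is between lines at the same time. In a fit of all 18 samples, the difference between the lines itself differed from that at 0 h in 0 genes at 2 h and in 2 genes, BDNF and KRT80, at 8 h (edgeR, adjusted p below 0.05), and 1027 and 1415 genes had an unadjusted p under 0.05.

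The largest differences were sought among genes with a mean of at least 20 TPM whose most abundant transcript is of the protein coding type. Higher in DAOY, the largest was PRAME, a tumour antigen that is otherwise expressed in testis, at chr22:22547701-22559361 (GRCh38, minus strand). PRAME was measured at 57.5, 77.2 and 76.2 TPM in DAOY and 0 TPM in each U87 mg sample, with values in the order of replicates 0, 1 and 2 here and throughout. Against the floor of 3 counts over the group, it was at least 1131-fold higher in DAOY (edgeR, adjusted p = 3.2e-06). DSP, the desmosomal protein desmoplakin at chr6:7541575-7586717, was at 93.4, 116 and 145 TPM in DAOY and 0.0185, 0.0172 and 0.0104 TPM in U87 mg, and its count ratio was 8047 (95% exact interval 2754 to 39022). EXD2, an exonuclease at chr14:69191511-69244020, was at least 830.2-fold higher (30.9, 33.8 and 39.2 TPM in DAOY, and 0 in each U87 mg sample). The type IV collagen chain COL4A1 of the basement membrane was at 59.1, 80.7 and 77.7 TPM in DAOY and 0, 0.297 and 0 TPM in U87 mg, a ratio of 5606 (95% exact interval 1552 to 46293). The genes of this group were chosen among those whose samples did not overlap between the lines, so that their separation is part of the rule.

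The other genes of this group were secreted or at the cell surface, apart from COX7B2, a testis form of a cytochrome c oxidase subunit, and UGT1A8, a glucuronosyltransferase. CRTAC1, a matrix protein of cartilage, was at least 804-fold higher, EMB, a chaperone of lactate transporters, at least 609.8-fold, COCH, a matrix protein of the inner ear, at least 493-fold, and COX7B2 at least 438-fold, each with 0 counts in U87 mg. UGT1A8 was at least 406-fold higher but ranged widely in DAOY (11.5, 11.1 and 49.0 TPM), and it shares its last exons with the other UGT1A genes, so that its assignment is uncertain. VCAM1, an adhesion molecule bound by leukocyte integrins, was at 324, 222 and 372 TPM in DAOY and 0.0609, 0.169 and 0.128 TPM in U87 mg, a log2 fold change of 11.42 ± 0.42 (edgeR, adjusted p = 1.2e-06).

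Higher in U87 mg, the largest difference was TNFRSF10D, a decoy receptor for the death ligand TRAIL, at chr8:23135588-23164030. It was at 0.0452, 0.0392 and 0 TPM in DAOY and 156, 137 and 153 TPM in U87 mg, a count ratio of U87 mg over DAOY of 5133 (95% exact interval 1421 to 42386). KCTD4 was at 47.8, 51.4 and 46.2 TPM in U87 mg, with counts in 1 of 3 DAOY samples, and IGFL3, of a family of insulin growth factor-like secreted proteins, was at least 138-fold higher in U87 mg. C1orf94 was at 25.2, 28.9 and 34.4 TPM in U87 mg, with 1 count in DAOY, and the phosphatase gene PAPL was at 27.5, 24.2 and 39.4 TPM in U87 mg, a count ratio of 571 (95% exact interval 195 to 2770.1). PLTP, the phospholipid transfer protein of lipoproteins, had a log2 fold change of -8.33 ± 0.40 (edgeR, adjusted p = 2.5e-06). The stromelysin MMP3, a matrix protease, reached the highest level among them at 2439.9, 1761 and 1901 TPM in U87 mg, against 6.15, 2.96 and 3.48 TPM in DAOY. HAS1, a hyaluronan synthase, was at 45.9, 61.2 and 63.9 TPM in U87 mg against 0.0810, 0.137 and 0.0881 TPM in DAOY, and PI3, the elastase inhibitor elafin, at 550.1, 332 and 1121 TPM in U87 mg against 4.15, 2.55 and 0 TPM in DAOY. HLA-DRB5, a class II antigen presentation chain, was at 35.5, 50.4 and 60.7 TPM in U87 mg, but its reads can be shared with the near-identical HLA-DRB1.

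**Figure D2:**
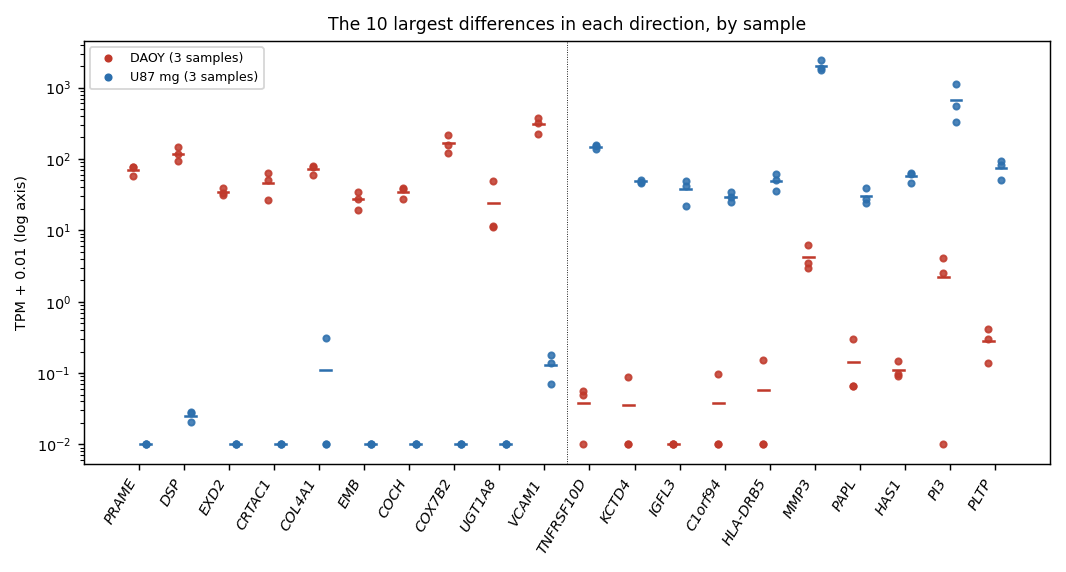
Each point is the TPM + 0.01 of 1 sample on a log axis, and each bar is the mean of 3 samples. Shown are the 10 genes with the largest differences in each direction among those whose most abundant transcript is protein coding, which leaves out COL3A1. Of the 10 genes higher in DAOY 7 had 0 counts in U87 mg, and MMP3 is the most abundant of those higher in U87 mg.

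Markers of the labelled cell types were only partly present. GFAP, the filament protein of astrocytes, had 1.48, 3.11 and 1.14 TPM in U87 mg and 0, 0.680 and 0.0581 TPM in DAOY, and it had too few counts to be tested. OLIG2, expressed in most glial tumours, was at 0.860 ± 0.471 TPM in U87 mg (SD, n = 3) and 0.964 ± 0.228 TPM in DAOY, a log2 fold change of 0.17 ± 0.50 that was not called. SOX2, a factor of neural stem cells, was at 3.29, 5.46 and 3.97 TPM in DAOY and 0, 0.0555 and 0 TPM in U87 mg, and so was close to absent from the glioblastoma line. The stem cell filament NES was higher in U87 mg (6.69, 8.07 and 8.54 TPM) than in DAOY (0.560, 0.588 and 0.505 TPM), as was the glutamate transporter SLC1A3 of astrocytes, with a log2 fold change of -2.39 ± 0.27 (edgeR, adjusted p = 0.00012). Of the 16 astrocyte and neural stem cell markers 8 could be tested, of which 3 were higher in DAOY and 4 in U87 mg. The first number became 5 without replicate 0 of DAOY, without replicate 0 of U87 mg or without both.

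Markers of the cerebellar granule lineage were more often higher in DAOY. Of 20 markers, 11 were tested, 7 were higher in DAOY and 0 in U87 mg, where edgeR called 21.7% of all genes higher in DAOY, and the median log2 fold change was 1.51. Of the 20 markers, 9 had a mean under 1 TPM in both lines. The share of 63.6% was near the 61.1% of the other patterning factors below, a list that also holds EN1, EN2 and ZIC5. The tilt was therefore not particular to this lineage. The midbrain and hindbrain factor EN1 was at 5.86, 14.3 and 10.2 TPM in DAOY, at least 191-fold higher, and its relative EN2 at 4.21, 4.46 and 4.10 TPM in DAOY, at least 112-fold higher, and both had 0 counts in U87 mg. ZIC5 was also at 0 in U87 mg and at 2.78, 2.98 and 4.56 TPM in DAOY. ZIC1 and PAX6, both factors of granule cell precursors, were present in both lines with overlapping samples. ZIC1 had means of 12.6 TPM in DAOY and 8.85 TPM in U87 mg, and PAX6 had means of 22.4 and 30.0 TPM. ATOH1, the defining factor of the lineage, was not among the gene names with values here and so was not analysed. It is also missing from the SHH subgroup genes below.

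Neuronal markers were split. Of 14 tested, 5 were higher in DAOY and 6 in U87 mg, with a median of -0.88. The neurofilament NEFL was at 20.5, 23.3 and 22.2 TPM in DAOY and nearly absent from U87 mg, and the RNA-binding protein ELAVL4 was at 1.05, 0.982 and 1.40 TPM in DAOY and had 0 counts in U87 mg. The tubulin TUBB3 (-1.91 ± 0.45; edgeR, adjusted p = 0.0068) was higher in U87 mg. UCHL1, an abundant neuronal hydrolase, was at 766 ± 281 TPM in DAOY and 1129 ± 116 TPM in U87 mg and was not called. Both lines held high levels of mesenchymal markers, which summed to 8987 to 14022 TPM per DAOY sample and 10349 to 11766 TPM per U87 mg sample.

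Of 15 mesenchymal markers, all tested, 7 were higher in DAOY and 3 in U87 mg. COL3A1, a fibrillar collagen of connective tissue, was at 404, 1203 and 903 TPM in DAOY and 0.299, 0.389 and 0.261 TPM in U87 mg, a log2 fold change of 11.48 ± 0.63 (edgeR, adjusted p = 4.1e-06). THY1, a surface glycoprotein, was at 25.3, 74.2 and 31.6 TPM in DAOY and had 0 counts in U87 mg. FN1, the matrix protein fibronectin, was among the most abundant transcripts of DAOY at 3673, 5998 and 8454 TPM, against 916, 1195 and 1515 TPM in U87 mg. NT5E, the surface nucleotidase CD73, was higher in U87 mg (1433, 1048 and 1322 TPM) than in DAOY (231, 80.6 and 115 TPM). Vimentin (VIM) was at 4744 ± 529 TPM in U87 mg and 2405 ± 511 TPM in DAOY (log2 fold change -1.02 ± 0.25), and the call was lost without replicate 2 of DAOY (-0.91) and without replicate 2 of U87 mg (-0.96). The hyaluronan receptor CD44 was at 3320.0, 3192 and 3005 TPM in U87 mg against 1533, 885 and 967 TPM in DAOY, and its log2 fold change of -0.96 ± 0.29 did not reach 2-fold.

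Markers of other cell types were few among the genes tested. PTPRC, the defining surface protein of leukocytes, was at 0, 0.0296 and 0 TPM in DAOY and 0.162, 0 and 0 TPM in U87 mg, at or near 0 in both lines, and of 8 leukocyte and microglia markers 2 were tested and both were higher in U87 mg. One of them was the lysosomal protein CD68 at 247, 499.8 and 602 TPM in U87 mg against 31.9, 41.8 and 23.0 TPM in DAOY. Of 7 endothelial markers 4 were tested, 3 were higher in DAOY and 1 in U87 mg (2 without replicate 0, 1 or 2 of DAOY, without replicate 0 of U87 mg and without both replicates 0). PECAM1 was at 9.08, 5.46 and 7.94 TPM in DAOY and 1.59, 2.30 and 1.09 TPM in U87 mg, and TIE1 at 6.72, 13.8 and 4.41 TPM in DAOY and 0.301, 0 and 0.206 TPM in U87 mg. Of 5 muscle markers, 0 had enough counts to be tested. The aggregates were grown from established tumour lines, and these bulk samples do not show how the RNA of a marker was spread over their cells.

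Genes that mark the SHH and group 4 medulloblastoma subgroups were mostly higher in DAOY where they were tested. Of 4 tested SHH subgroup genes 3 were higher in DAOY and 0 in U87 mg, with a median of 4.69. SFRP1, a secreted WNT antagonist, was at 22.6, 22.4 and 28.2 TPM in DAOY and 0, 0.106 and 0.0268 TPM in U87 mg, PDLIM3 was at 23.5, 25.4 and 29.7 TPM in DAOY and 0.671, 0.371 and 0.821 TPM in U87 mg, and the hedgehog-binding protein HHIP was at 1.48, 8.78 and 3.49 TPM in DAOY and 0.0429, 0.321 and 0.490 TPM in U87 mg. EYA1, a phosphatase and transcriptional coactivator, was at 5.06 TPM in DAOY and 8.35 TPM in U87 mg and was not called. All 4 tested group 4 genes were higher in DAOY, with a median of 4.20, and included the potassium channel KCNA1 (5.37 ± 0.62) and OAS1 (5.22 ± 0.38), which is also induced by interferon. The number was 3 without both replicates 0 or with limma on log2(TPM + 1), and 2 with counts freed of transcript length. Of the 6 genes listed for group 4, 3 had a mean under 1 TPM in both lines. Of 3 tested group 3 genes 1 was higher in DAOY and 0 in U87 mg, with a median of 0.48, namely GABRA5, a GABA receptor chain, with a count ratio of 74.6 (95% exact interval 20.7 to 616). Of 3 tested WNT subgroup genes 1 was higher in each line, with a median of -0.65. The forebrain factor EMX2 was higher in DAOY, with a count ratio of 120.1 (95% exact interval 33.2 to 992), and GAD1, which makes the transmitter GABA, in U87 mg (-1.50 ± 0.35), which limma on log2(TPM + 1) did not call. The group 3 list gave 2 genes higher in DAOY without replicate 0 of DAOY, without any 1 U87 mg sample or without both replicates 0, and the WNT list gave 2 without replicate 0 of U87 mg.

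Of 11 genes of the mesenchymal glioblastoma pattern, all tested, 5 were higher in U87 mg and 3 in DAOY, with a median of -0.96. CHI3L1, a secreted glycoprotein of reactive astrocytes, was at 84.4, 129 and 156 TPM in U87 mg against 4.47, 5.67 and 3.11 TPM in DAOY. The urokinase receptor PLAUR (-1.74 ± 0.24) and the hepatocyte growth factor receptor MET (-1.54 ± 0.19) were also higher in U87 mg, with adjusted p-values from edgeR of 0.00037 and 0.00019. TGFBI, a matrix protein of the same pattern, went the other way, at 3146, 4292 and 4939.6 TPM in DAOY and 1200.1, 1524 and 1809 TPM in U87 mg. Of 6 tested proneural genes 4 were higher in DAOY and 0 in U87 mg (1 without replicate 1 of DAOY), with a median of 3.47, or 3.01 with genes at 0 counts set to their bound. Besides SOX2 these included the Notch ligand DLL3, with a count ratio of 67.9 (95% exact interval 12.2 to 2683), and the glial factor NKX2-2, which was at 1.53, 1.64 and 1.76 TPM in DAOY and had 0 counts in U87 mg. EGFR of the classical pattern was at 52.9, 46.6 and 57.3 TPM in DAOY and 40.9, 43.5 and 45.9 TPM in U87 mg, a log2 fold change of 0.25 ± 0.18 that was not called.

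HOX genes were expressed in DAOY and mostly low in U87 mg. These homeobox factors set position along the body axis and are silent in most of the normal forebrain and cerebellum. Of 38 HOX genes 32 were tested, 27 were higher in DAOY (84.4%, against 21.7% of all genes) and 2 in U87 mg, with a median log2 fold change of 3.44. At 2 h 29 were higher in DAOY and 2 in U87 mg, and at 8 h 30 and 1. HOXA7 was at 25.8, 28.3 and 23.4 TPM in DAOY and had 0 counts in U87 mg, at least a 295-fold difference. HOXA10 was at 26.0, 28.4 and 29.2 TPM in DAOY and 0.0702, 0.129 and 0 TPM in U87 mg, HOXC10 at 30.7, 50.1 and 54.5 TPM in DAOY and 0.387, 0.176 and 0.258 TPM in U87 mg, and HOXB7 at 31.0, 24.9 and 23.9 TPM in DAOY and 0.582, 0.107 and 0.514 TPM in U87 mg. No sample of U87 mg reached the level of any DAOY sample for these genes. HOXA4 was expressed in both lines and was higher in DAOY (log2 fold change 2.44 ± 0.30; edgeR, adjusted p = 0.00018). HOXB2 was higher in U87 mg, at 24.0, 29.9 and 33.4 TPM against 8.97, 8.86 and 10.1 TPM in DAOY.

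Other patterning factors followed with less of a tilt. Of 101 homeobox, PAX, T-box, POU and ZIC genes 72 were tested, 44 were higher in DAOY and 10 in U87 mg, with a median of 1.82. The neural POU factor POU3F3 (5.36, 7.35 and 6.31 TPM in DAOY) and the forelimb and heart factor TBX5 (4.46, 7.17 and 6.32 TPM in DAOY) had 0 counts in U87 mg. MSX2, a factor of neural crest and bone, was at 54.0, 32.8 and 36.2 TPM in DAOY and 0, 0.125 and 0.0951 TPM in U87 mg. PRRX1, a mesenchymal homeobox factor, was higher in U87 mg, at 76.0, 76.1 and 66.9 TPM against 26.4, 41.8 and 12.4 TPM in DAOY. Of 9 tested factors of epithelial to mesenchymal transition, 3 were higher in DAOY, namely TWIST2 (3.93 ± 0.42), SNAI1 (3.40 ± 0.61) and FOXC1 (2.15 ± 0.26), and 1, PRRX1, in U87 mg. SNAI2 was at 157, 153 and 175 TPM in DAOY and 90.7, 89.3 and 75.1 TPM in U87 mg and ZEB1 at 22.1 and 22.6 TPM on average, and neither was called.

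Interferon-stimulated genes were higher in DAOY without an exception among those called. Type I interferons act through a complex with STAT2 and IRF9, which binds interferon-response elements in the promoters of antiviral genes. All 30 genes of the list were tested, 21 were higher in DAOY (70.0%, against 21.7% of all genes) and 0 in U87 mg, and the median log2 fold change was 2.55. At 2 h 25 and 0 were called, and at 8 h 23 and 1. To show the element that these genes share, the 250 bases upstream of the start of 3 of them are given from RefSeq on GRCh38.p14, read 5′ to 3′ on the strand of the gene, with every match of its core (TTTC, any 2 bases, TTTC) on either strand in capitals. They lie at chr11:313790-314039 (IFITM1, plus strand), chr14:94110486-94110735 (IFI27, plus strand) and chr1:27672193-27672442 (IFI6, minus strand).
IFITM1: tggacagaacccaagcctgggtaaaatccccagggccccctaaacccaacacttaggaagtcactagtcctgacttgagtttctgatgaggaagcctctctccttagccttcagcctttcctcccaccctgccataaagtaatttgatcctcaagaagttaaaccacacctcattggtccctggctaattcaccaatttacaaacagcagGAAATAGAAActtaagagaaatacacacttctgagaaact
IFI27: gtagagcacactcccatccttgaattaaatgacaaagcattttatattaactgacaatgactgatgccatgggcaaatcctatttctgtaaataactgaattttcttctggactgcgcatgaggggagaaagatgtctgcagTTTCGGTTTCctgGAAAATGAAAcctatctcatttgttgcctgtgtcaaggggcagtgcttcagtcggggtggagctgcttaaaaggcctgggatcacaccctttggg
IFI6: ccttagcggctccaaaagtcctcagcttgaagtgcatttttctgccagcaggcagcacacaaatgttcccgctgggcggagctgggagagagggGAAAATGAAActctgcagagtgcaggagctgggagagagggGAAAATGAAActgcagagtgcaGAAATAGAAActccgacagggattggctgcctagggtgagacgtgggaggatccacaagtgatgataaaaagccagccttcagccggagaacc
The core occurred in 14 of the 21 promoters that could be matched to this list (66.7%), in 2.51% of the 10128 matched promoters of all genes tested and in 3.04% of all 26246 promoters of the same length. A match describes the letters only and does not show that a factor binds there.

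IFITM1, a membrane protein that blocks virus entry, was at 16.8, 52.5 and 22.2 TPM in DAOY and 0, 0 and 0.158 TPM in U87 mg, a count ratio of 505 (95% exact interval 90.6 to 19932). IFI27, with cores 108 and 95 bases before its start, was at 33.4, 123.1 and 97.2 TPM in DAOY and 0, 0.358 and 0.273 TPM in U87 mg. IFI6, with 3 cores, was at 136, 117 and 112 TPM in DAOY and 18.4, 20.5 and 17.4 TPM in U87 mg. All U87 mg samples lay below all DAOY samples for each of these genes. The antiviral GTPase MX1 was at 142, 107 and 77.8 TPM in DAOY and 0.858, 1.97 and 2.01 TPM in U87 mg, a log2 fold change of 6.76 ± 0.43 (edgeR, adjusted p = 7e-06), and IFI44 was at 378, 291 and 244 TPM in DAOY and 94.1, 67.9 and 76.4 TPM in U87 mg. The list summed to 1533 to 2096 TPM per DAOY sample and 402 to 433 TPM per U87 mg sample.

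Genes of glycolysis and of the response to low oxygen were higher in U87 mg. In cells short of oxygen, HIF transcription factors bind the core ACGTG and raise glucose uptake, glycolysis, blood vessel growth and mitophagy. Of 29 tested genes 24 were higher in U87 mg (82.8%) and 1 in DAOY, against 16.8% and 21.7% of all genes, and the median log2 fold change was -2.18. At 2 h 21 were higher in U87 mg and at 8 h 17, with 1 in DAOY at both times. The list summed to 6789 to 9081 TPM per DAOY sample and 16473 to 25402 TPM per U87 mg sample. The 250 bases before the start of 3 members that differed are given, again from RefSeq on GRCh38.p14, with each ACGTG on either strand in capitals. The palindrome CACGTG is a match on both strands. They lie at chr11:18394313-18394562 (LDHA, plus strand), chr9:35673678-35673927 (CA9, plus strand) and chr10:131981924-131982173 (BNIP3, minus strand).
LDHA: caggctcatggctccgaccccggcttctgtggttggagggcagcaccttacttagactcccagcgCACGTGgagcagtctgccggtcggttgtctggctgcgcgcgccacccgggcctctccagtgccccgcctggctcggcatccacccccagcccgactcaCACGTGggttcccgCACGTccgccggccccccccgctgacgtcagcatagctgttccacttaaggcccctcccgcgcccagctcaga
CA9: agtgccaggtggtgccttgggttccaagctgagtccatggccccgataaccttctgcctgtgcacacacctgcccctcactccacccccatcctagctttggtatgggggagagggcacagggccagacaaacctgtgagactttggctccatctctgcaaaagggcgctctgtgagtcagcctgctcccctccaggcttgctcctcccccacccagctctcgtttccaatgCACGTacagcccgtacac
BNIP3: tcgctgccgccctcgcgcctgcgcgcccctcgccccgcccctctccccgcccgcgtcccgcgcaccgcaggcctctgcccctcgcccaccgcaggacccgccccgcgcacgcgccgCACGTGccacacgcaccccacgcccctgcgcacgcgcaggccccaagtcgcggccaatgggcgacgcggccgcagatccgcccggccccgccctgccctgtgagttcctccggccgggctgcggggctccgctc
The core was found in 13 of the 25 promoters matched to this list (52.0%), against 23.5% of those of all genes tested and 18.6% of all promoters of this length. It was also in 9 of 13 matched promoters of the HOX list (69.2%), which was mostly higher in DAOY. Among all genes higher in U87 mg and in DAOY it was in 22.0% and 21.8%. Such a short match describes the letters only and does not show that a factor binds there.

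LDHA, which makes lactate from pyruvate, was at 1108, 1047 and 1155 TPM in DAOY and 4141, 4764 and 5539 TPM in U87 mg. CA9, a carbonic anhydrase of the cell surface whose single core lies 18 bases before the start, was at 2.01, 0.363 and 0 TPM in DAOY and 38.2, 69.9 and 170.0 TPM in U87 mg, a log2 fold change of -8.11 ± 0.72 (edgeR, adjusted p = 3.4e-05). BNIP3, a mitophagy receptor, was at 15.2, 23.4 and 27.7 TPM in DAOY and 194, 186 and 324 TPM in U87 mg. The lines did not overlap in these genes, and CA9 spread the most between replicates of U87 mg. NDRG1, a stress-induced gene, was at 29.6, 27.1 and 46.5 TPM in DAOY and 312, 257 and 451 TPM in U87 mg, the glycolytic enzyme GAPDH at 1156, 2378 and 2124 TPM in DAOY and 3698, 5660.0 and 7036 TPM in U87 mg, and VEGFA, the main growth factor of blood vessels, at 52.1, 46.3 and 86.3 TPM in DAOY and 335, 343 and 466 TPM in U87 mg. The exception was EGLN3, an oxygen-sensing hydroxylase that is itself induced by low oxygen, which was higher in DAOY at 71.1, 76.3 and 144 TPM against 3.39, 4.53 and 7.90 TPM in U87 mg. Oxygen in the channels was not analysed here.

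**Figure D3:**
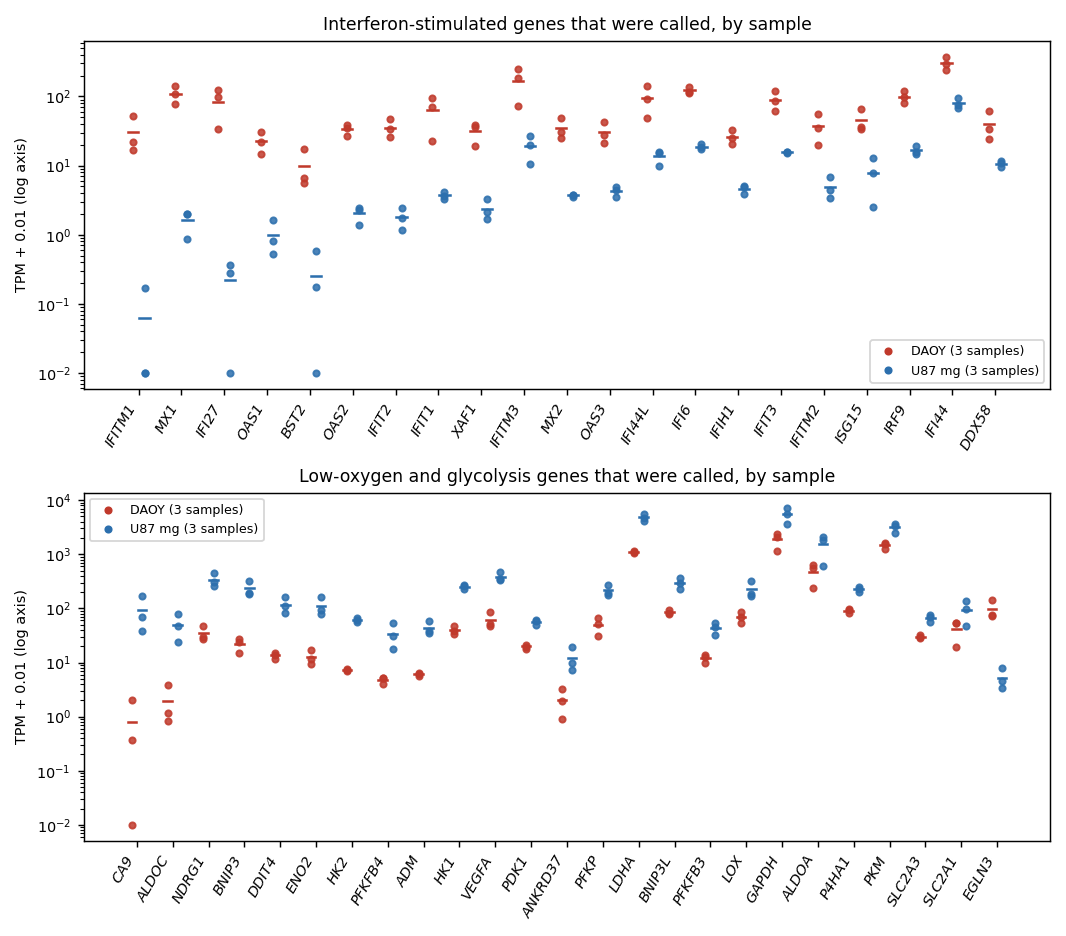
Each point is the TPM + 0.01 of 1 sample on a log axis and each bar a mean of 3 samples, for the interferon-stimulated genes (top) and the low-oxygen and glycolysis genes (bottom) that were called, ordered by their fold change. DAOY lies above U87 mg for the 21 genes of the top panel, and U87 mg lies above DAOY for 24 genes of the bottom panel, with EGLN3 the one called the other way.

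Cytokines differed by gene rather than as a group. Of 64 chemokines, interleukins, colony stimulating factors and chemokine receptors 31 were tested, 11 were higher in DAOY and 8 in U87 mg, with a median of -0.48. The first number became 20 without replicate 2 of DAOY and 21, 18 and 17 without replicates 0, 1 and 2 of U87 mg, and the second became 14 without replicate 0 of DAOY and 13 without both replicates 0. IL1B, a main inflammatory cytokine, was at 3402, 1016 and 2686 TPM in U87 mg against 21.9, 2.79 and 5.41 TPM in DAOY, and CSF3, the granulocyte growth factor, at 1311, 726 and 1659 TPM in U87 mg against 11.1, 1.63 and 1.55 TPM in DAOY. CCL2, a monocyte attractant, went the other way, at 3259.7, 1747 and 2115 TPM in DAOY and 14.2, 48.7 and 23.5 TPM in U87 mg (log2 fold change 6.24 ± 0.51; edgeR, adjusted p = 2.4e-05). The interferon-induced T cell attractant CXCL10 was at 51.9, 21.3 and 8.81 TPM in DAOY and had 0 counts in U87 mg, at least a 218-fold difference.

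The neutrophil attractant CXCL8 was at 1527, 189.8 and 309 TPM in DAOY and 3464, 1088 and 2926 TPM in U87 mg, and IL6 was at 944, 148 and 131 TPM in DAOY and 589, 241 and 560.1 TPM in U87 mg. In both genes replicate 0 of DAOY was the high sample of its line, the lines overlapped, and neither was called (edgeR, adjusted p = 0.083 and 0.87). The promoters of CXCL10 (chr4:76023498-76023747, minus strand) and CXCL8 (chr4:73740319-73740568, plus strand) are shown as both genes are known NF-kappaB targets. The 250 bases before the start come from RefSeq on GRCh38.p14, with matches of GGGA, any 4 bases and CC on either strand in capitals.
CXCL10: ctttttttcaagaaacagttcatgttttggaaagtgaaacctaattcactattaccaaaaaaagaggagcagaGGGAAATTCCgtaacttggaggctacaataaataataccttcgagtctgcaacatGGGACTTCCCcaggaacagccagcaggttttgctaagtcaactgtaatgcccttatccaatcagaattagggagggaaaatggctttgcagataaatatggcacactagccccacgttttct
CXCL8: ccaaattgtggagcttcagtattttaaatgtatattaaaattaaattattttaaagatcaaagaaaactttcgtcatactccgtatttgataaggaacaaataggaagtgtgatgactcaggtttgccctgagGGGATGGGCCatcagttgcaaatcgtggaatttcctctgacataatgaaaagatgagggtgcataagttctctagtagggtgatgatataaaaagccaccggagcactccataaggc
This loose pattern was in 11 of the 22 promoters matched to the cytokine list, in 27.7% of those of all genes tested and in 22.1% of all promoters of this length. A match describes the letters only and does not show where NF-kappaB binds. The stretch tggaatttcc of CXCL8 differs from the pattern at its first base and is therefore not in capitals.

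The named genes of class II antigen presentation were higher in U87 mg. CD74, the invariant chain that guards class II molecules, was at 62.0, 132 and 135 TPM in U87 mg against 0.803, 0.948 and 0 TPM in DAOY, HLA-DRA at 74.0, 89.8 and 76.1 TPM in U87 mg against 3.62, 5.91 and 3.51 TPM in DAOY, and HLA-DRB1 at 31.9, 58.2 and 66.6 TPM in U87 mg against 0.305, 1.47 and 1.12 TPM in DAOY. CIITA, the factor that switches on class II genes, was at 1.75, 2.86 and 3.12 TPM in U87 mg against 0.0810, 0.285 and 0.422 TPM in DAOY, a log2 fold change of -3.67 ± 0.47 (edgeR, adjusted p = 0.00024). The class I heavy chain HLA-C, which can share reads with other heavy chains, was higher in DAOY (1.65 ± 0.36), while the class I light chain B2M was at 6659 ± 1181 TPM in DAOY and 8305 ± 570.4 TPM in U87 mg, overlapped and was not called. Of 20 tested antigen presentation genes 6 were higher in U87 mg and 3 in DAOY, and the second number became 5 without replicate 0 of DAOY or replicate 2 of U87 mg and 1 without replicate 2 of DAOY or replicate 0 of U87 mg.

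Collagens were more often higher in DAOY. Of 42 genes 30 were tested, 16 were higher in DAOY (53.3%, against 21.7% of all genes) and 8 in U87 mg (26.7%, against 16.8%), with a median of 1.66. Without both replicates 0, in which collagens were low, the numbers were 17 and 8. Besides COL3A1 and COL4A1, COL4A2 was at 34.0, 76.0 and 61.4 TPM in DAOY and 2.43, 6.51 and 3.12 TPM in U87 mg, COL1A1 at 246, 732 and 551 TPM in DAOY and 16.9, 83.0 and 83.2 TPM in U87 mg, and COL6A1 at 303, 699.9 and 690.4 TPM in DAOY and 75.6, 194 and 167 TPM in U87 mg. In each of these the lowest DAOY value was that of replicate 0. Of 28 tested matrix glycoproteins and proteoglycans 13 were higher in DAOY and 2 in U87 mg (4 without replicate 1 of DAOY or both replicates 0), with a median of 0.97. The proteins of this group bind cells or growth factors. POSTN, a matrix protein of wound repair, was at 13.6, 34.4 and 23.7 TPM in DAOY and 0, 0.0825 and 0 TPM in U87 mg, IGFBP5, which binds insulin-like growth factors, at 58.0, 206 and 221 TPM in DAOY and 0.0936, 0.0434 and 0.0329 TPM in U87 mg, and the adhesion protein THBS1 at 371, 98.0 and 561 TPM in DAOY and 8.00, 17.9 and 11.6 TPM in U87 mg. SPP1, osteopontin, was higher in U87 mg, at 389, 410.2 and 321 TPM against 7.74, 2.25 and 3.79 TPM in DAOY.

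Most laminins did not pass the test, and of 10 tested chains LAMA4 was higher in DAOY (4.26 ± 0.22) and LAMA5 (-3.31 ± 0.43) was 1 of 2 higher in U87 mg. LAMC1 was at 202 and 119 TPM on average in DAOY and U87 mg and was not called. Leaving out 1 library gave 1 or 2 calls in each direction, with 2 higher in DAOY without any of the samples except replicate 1 of DAOY, and also without both replicates 0, and 1 in U87 mg without replicate 1 or 2 of either line.

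Matrix proteases were divided between the lines. Of 28 tested 9 were higher in DAOY and 10 in U87 mg, with a median of -0.26. Besides MMP3, the gelatinase MMP2 was higher in U87 mg at 794, 1192 and 1084 TPM against 256, 275 and 285 TPM in DAOY, as were the collagenase MMP1 (-2.61 ± 0.70) and the urokinase gene PLAU (-1.31 ± 0.26). MMP13, another collagenase, was at 34.9, 32.3 and 14.6 TPM in DAOY and 0, 0 and 0.0388 TPM in U87 mg, and the membrane protease MMP14, which activates MMP2, was at 242, 398 and 245 TPM in DAOY and 80.5, 132 and 119 TPM in U87 mg. Among the inhibitors, SERPINE2 was higher in DAOY (2.03 ± 0.22), while TIMP4 (-3.16 ± 0.37) was higher in U87 mg. Of 8 tested inhibitors and regulators 3 were higher in U87 mg and 1 in DAOY (3 without replicate 2 of U87 mg).

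Integrins, the receptors for these matrix proteins, numbered 8 higher in each line among 20 tested. The laminin receptor chain ITGA3 was at 239.5, 387 and 507 TPM in U87 mg against 19.04, 16.2 and 33.4 TPM in DAOY, ITGA7 at 17.0, 28.8 and 31.6 TPM in U87 mg against 0.347, 3.79 and 1.86 TPM in DAOY, the fibronectin receptor chain ITGA5 at 164, 239 and 306 TPM in U87 mg against 49.7, 65.6 and 75.8 TPM in DAOY, and their common partner ITGB1 at 1256, 1166 and 1356 TPM in U87 mg against 629, 361 and 409.9 TPM in DAOY. All DAOY samples were below all U87 mg samples in these chains. ITGA8 was at 12.2, 12.7 and 4.12 TPM in DAOY and 0, 0 and 0.0633 TPM in U87 mg, and ITGAV, at 201, 205 and 206 TPM in DAOY and 147, 148 and 129 TPM in U87 mg, was not called. Cell to cell adhesion showed the same kind of split, with 3 of 9 tested cadherins higher in each line. CDH11, a mesenchymal cadherin, was at 32.6, 68.5 and 69.4 TPM in DAOY and 3.76, 7.72 and 5.43 TPM in U87 mg, and CDH13, a cadherin without a cytoplasmic part, at 35.1, 24.4 and 19.2 TPM in DAOY and 203, 181 and 222 TPM in U87 mg. The neural cadherin CDH2 was at 127, 80.3 and 97.4 TPM in DAOY and 45.9, 57.5 and 47.2 TPM in U87 mg, less than a 2-fold difference (0.82 ± 0.19).

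Several keratins, the filaments of epithelia, differed in opposite directions. KRT18 was at 71.4, 159 and 176 TPM in DAOY and 0.386, 0.806 and 0.613 TPM in U87 mg, its partner KRT8 at 22.3, 44.1 and 27.4 TPM in DAOY and 1.84, 3.03 and 2.91 TPM in U87 mg, and KRT17 at 11.8, 14.9 and 26.2 TPM in DAOY and 0, 0.235 and 0.770 TPM in U87 mg. KRT8 and KRT18 pair with each other in simple epithelia. KRT15 was at 8.98, 12.2 and 24.0 TPM in U87 mg with counts in 1 DAOY sample, and KRT80 at 13.9, 21.8 and 19.2 TPM in U87 mg against 0.124, 0.322 and 0.368 TPM in DAOY. Of 11 tested keratins 3 were higher in DAOY (5 without any 1 of the U87 mg samples) and 4 in U87 mg, and 4 passed in neither direction, among them KRT10, with the highest level of the keratins in U87 mg (33.4, 40.8 and 53.3 TPM in DAOY and 38.0, 33.3 and 30.5 TPM in U87 mg). SYNM, a filament protein that joins vimentin networks, was higher in DAOY (5.39 ± 0.33; edgeR, adjusted p = 6e-06).

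By number of genes, growth factor receptors were more often higher in DAOY, and growth factors in U87 mg. Of 23 tested receptor tyrosine kinases outside the ErbB family, 14 were higher in DAOY and 5 in U87 mg, with a median of 1.65. Their summed level went the other way, at 283.5 to 362 TPM per DAOY sample and 430 to 492 TPM per U87 mg sample. FLT1, a VEGF receptor, was at 19.4, 19.9 and 6.53 TPM in DAOY and had 0 counts in U87 mg, at least a 637-fold difference. PDGFRB was at 59.8, 65.4 and 49.0 TPM in DAOY and 13.2, 14.3 and 17.99 TPM in U87 mg, IGF1R at 15.2, 20.3 and 17.4 TPM in DAOY and 3.796, 4.56 and 2.57 TPM in U87 mg, and ROR1, a receptor for WNT5A, at 7.07, 10.4 and 14.3 TPM in DAOY and 0.0659, 0.173 and 0.131 TPM in U87 mg. These receptors were expressed in every DAOY sample. AXL, the receptor for GAS6, was higher in U87 mg at 78.1, 100.3 and 122 TPM against 10.6, 12.7 and 11.2 TPM in DAOY, as was MET at 153, 139 and 142 TPM in U87 mg against 53.4, 44.2 and 56.5 TPM in DAOY. In the ErbB family ERBB2 was at 3.46, 9.02 and 5.39 TPM in DAOY and 1.74, 1.52 and 1.62 TPM in U87 mg, and ERBB3 and ERBB4 had too few counts to be tested.

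Ligands leaned to U87 mg. Of 8 tested ErbB ligands 6 were higher in U87 mg and 1 in DAOY (2 without replicate 0 of DAOY or both replicates 0), with a median of -2.80. EREG was at 873, 555 and 698 TPM in U87 mg against 3.03, 1.84 and 6.80 TPM in DAOY, TGFA at 49.3, 63.2 and 63.7 TPM in U87 mg against 4.61, 5.35 and 7.34 TPM in DAOY, NRG1 at 219.7, 132 and 176 TPM in U87 mg against 28.5, 11.1 and 48.4 TPM in DAOY, and HBEGF at 96.3, 58.1 and 77.5 TPM in U87 mg against 31.8, 7.68 and 15.2 TPM in DAOY. All U87 mg samples were above all DAOY samples in these ligands. AREG was the ligand higher in DAOY, at 9.79, 4.66 and 20.5 TPM and 0, 0.119 and 0.182 TPM in U87 mg.

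Of 24 other growth factors tested 13 were higher in U87 mg and 6 in DAOY, with a median of -1.34. FGF2 was at 192, 127 and 161 TPM in U87 mg against 3.54, 1.96 and 1.77 TPM in DAOY and HGF, the ligand of MET, at 13.8, 12.6 and 13.1 TPM in U87 mg against 0.149, 0.0634 and 0.163 TPM in DAOY, so that both HGF and MET were higher in U87 mg. INHBA, a chain of activin A, was at 454, 139 and 291 TPM in DAOY and 6.31, 2.59 and 5.70 TPM in U87 mg, and BMP4 was at 6.74, 5.99 and 7.13 TPM in DAOY with 0 counts in U87 mg. Genes of PI3K, AKT and mTOR signalling were called in both directions. The PI3K chain PIK3CD was higher in U87 mg (-1.19 ± 0.22), PIK3CG, a chain best known from leukocytes, in DAOY (4.61 ± 0.63), the phosphatase PHLPP2 in U87 mg (-1.33 ± 0.22) and the mTOR complex member RPTOR in U87 mg (-1.92 ± 0.37), while SGK1, a kinase related to AKT (1.29 ± 0.22), and EIF4EBP2, a repressor of translation initiation (1.48 ± 0.18), were higher in DAOY. Of 7 tested class I PI3K chains 2 were higher in DAOY, or 1 without replicate 0 or 1 of DAOY or replicate 1 or 2 of U87 mg, and 1 in U87 mg. Of 6 tested phosphatases 1 was higher in U87 mg and 0 in DAOY. Of 18 tested kinases and mTOR members 3 were higher in DAOY and 2 in U87 mg, the latter 1 without replicate 2 of either line. PIK3CA (0.76 ± 0.22) and AKT1 (0.24 ± 0.36) were not called.

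Motility genes of the study's PCR array, a list that the study had chosen for cell movement, were more often higher in U87 mg. Of 76 tested 26 were higher in U87 mg (34.2%) and 10 in DAOY, with a median of -0.55. DPP4, a surface peptidase, was at 64.2, 60.3 and 55.7 TPM in U87 mg against 1.47, 0.424 and 0.833 TPM in DAOY, and the calpain CAPN2, which cuts adhesion proteins, at 544, 555 and 581 TPM in U87 mg against 73.8, 59.7 and 98.5 TPM in DAOY. MYH10, a non-muscle myosin heavy chain, was at 37.7, 31.0 and 20.2 TPM in DAOY and 0.413, 0.732 and 0.981 TPM in U87 mg. The actin-severing protein CFL1 was abundant and overlapped, at 684 ± 302 TPM in DAOY and 907 ± 296 TPM in U87 mg.

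Hedgehog pathway genes were more often higher in DAOY, with 7 of 12 tested against 2 in U87 mg (4 without replicate 2 of DAOY) and a median of 1.38. SMO was at 4.18, 16.5 and 10.8 TPM in DAOY and 0, 0 and 0.154 TPM in U87 mg, a count ratio of 869.8 (95% exact interval 156 to 34355). The co-receptor GAS1 was at 12.1, 71.7 and 23.5 TPM in DAOY and 0.212, 0.343 and 0 TPM in U87 mg, the receptor PTCH1, itself a target of the pathway, at 10.9, 8.92 and 9.99 TPM in DAOY and 2.62, 4.98 and 2.76 TPM in U87 mg, and GLI3 at 17.7, 20.6 and 20.7 TPM in DAOY and 7.57, 6.14 and 5.71 TPM in U87 mg. Replicate 0 held the lowest DAOY value of SMO, GAS1 and HHIP. GLI2, an activating factor of the pathway, was higher in U87 mg, at 2.95, 5.03 and 4.72 TPM against 1.27, 1.41 and 1.05 TPM in DAOY.

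Of 35 tested WNT pathway genes 19 were higher in DAOY and 5 in U87 mg (3 without replicate 1 of U87 mg), with a median of 1.44. The antagonist SFRP4 was at 11.0, 126 and 66.3 TPM in DAOY and 0.717, 0.640 and 0.616 TPM in U87 mg, LGR4, a receptor that strengthens WNT signals, at 149, 162 and 137 TPM in DAOY and 31.2, 27.7 and 31.3 TPM in U87 mg, and the transcription factor LEF1 at 33.7, 45.8 and 30.1 TPM in DAOY and 7.51, 7.15 and 7.93 TPM in U87 mg. DAOY was the higher line in every sample of these genes. WNT7B was higher in U87 mg at 23.0, 59.1 and 46.8 TPM against 3.75, 2.82 and 7.27 TPM in DAOY, and WNT5A was abundant in both, at 308 ± 141 TPM in DAOY and 208 ± 15.9 TPM in U87 mg, and was not called.

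In the Notch pathway 10 of 19 tested genes were higher in DAOY and 2 in U87 mg, with a median of 1.56. The target HES1 was at 44.7, 52.1 and 60.01 TPM in DAOY and 4.08, 2.56 and 1.11 TPM in U87 mg, and the target HEY1 at 21.1, 27.9 and 20.6 TPM in DAOY and 2.50, 0.831 and 0.835 TPM in U87 mg. Both were high in every DAOY sample. The ligand JAG1 was at 35.6, 36.4 and 34.2 TPM in DAOY and 5.22, 5.31 and 3.92 TPM in U87 mg. NRARP, a feedback regulator, was at 2.74, 3.95 and 2.95 TPM in DAOY and had 0 counts in U87 mg. RBPJ, the DNA-binding partner of Notch, was higher in U87 mg (-1.38 ± 0.22). The second call in U87 mg was lost without any 1 library except replicate 1 of DAOY and without both replicates 0, and NOTCH2 (-0.83 ± 0.21) did not reach 2-fold.

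Axon guidance genes, which also steer migrating cells, were higher in DAOY in 7 of 15 tested ephrins and Eph receptors, 12 of 24 semaphorins, plexins and neuropilins and 6 of 12 netrin and slit genes. In U87 mg 2, 6 and 3 of them were higher. The shares were 46.7, 50 and 50% for DAOY, against 21.7% of all genes. For U87 mg they were 13.3, 25 and 25%, against 16.8% of all genes. The summed level of semaphorins, plexins and neuropilins went the other way, at 387 to 447 TPM per DAOY sample and 609 to 755 TPM per U87 mg sample. The sums of the ephrin list and of the netrin and slit list overlapped between the lines. EFNB3 was at 11.8, 21.7 and 13.6 TPM in DAOY and 0, 0 and 0.0324 TPM in U87 mg, EFNA1 at 16.4, 32.1 and 51.3 TPM in DAOY and 0.251, 0 and 0.0766 TPM in U87 mg, and the receptor EPHB4 at 14.2, 29.4 and 24.5 TPM in DAOY and 1.53, 3.23 and 2.81 TPM in U87 mg. EFNB2 (-2.15 ± 0.19) and EPHA2 (-2.18 ± 0.35) were higher in U87 mg. Replicate 0 was low in ephrins, with a median difference of -0.87 in DAOY and -0.49 in U87 mg on the log2(TPM + 1) scale, and without both replicates 0 the calls were 9 and 3. NRP1, a receptor of semaphorins and VEGF, was at 215, 273 and 243 TPM in U87 mg against 48.4, 31.98 and 56.4 TPM in DAOY, SEMA7A at 39.5, 70.7 and 98.5 TPM in U87 mg against 7.58, 8.44 and 7.81 TPM in DAOY and SEMA3C at 101.9, 121 and 127 TPM in U87 mg against 36.8, 32.9 and 28.8 TPM in DAOY. SEMA3E went the other way, with a log2 fold change of 4.79 ± 0.67. Within the netrin system ligand and receptor differed in direction. The ligand NTN1 was higher in DAOY, at 3.49, 9.29 and 2.53 TPM and 0.0734, 0.0453 and 0 TPM in U87 mg, while its receptor DCC was at 1.73, 2.58 and 1.75 TPM in U87 mg and had 0 counts in DAOY. Another netrin receptor, NEO1, was higher in DAOY (2.08 ± 0.17), and NTNG1 in U87 mg (-3.68 ± 0.23).

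Ion channels set the membrane voltage and calcium entry of cells, and the study exposed these lines to a direct current field. Of 39 tested potassium channel genes 22 were higher in DAOY and 6 in U87 mg, with a median of 1.84. KCNJ15, an inward rectifier, was at 211, 199 and 172 TPM in DAOY and 5.40, 5.49 and 5.76 TPM in U87 mg. KCNK1 (12.6, 20.2 and 28.7 TPM in DAOY) and KCNJ16 (3.49, 7.17 and 2.90 TPM in DAOY) had 0 counts in U87 mg. The calcium-activated channel KCNN4 was higher in U87 mg at 18.05, 35.4 and 35.9 TPM against 1.98, 5.12 and 5.58 TPM in DAOY, and KCNMA1 (-0.28 ± 0.19) was not called. Of 17 tested sodium and calcium channel genes 7 were higher in DAOY and 2 in U87 mg, with a median of -0.03. CACNA1A, a neuronal calcium channel, was at 59.3, 69.2 and 71.2 TPM in U87 mg against 1.38, 5.26 and 2.66 TPM in DAOY. CACNA2D1 was at 19.6 and 22.4 TPM on average and overlapped.

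Chloride channels were split 6 and 6 among 22 tested, with CLIC6 at 21.6, 20.4 and 30.9 TPM in DAOY and 0, 0 and 0.0545 TPM in U87 mg, ANO4 at 6.38, 15.2 and 7.55 TPM in DAOY and 0, 0 and 0.173 TPM in U87 mg, and CLCN3 (-1.74 ± 0.20) and ANO10 (-1.73 ± 0.19) higher in U87 mg. CLIC1 was the most abundant of them at 335 and 330.4 TPM and was not called. Of 23 tested TRP, PIEZO, ASIC and purinergic channels 8 were higher in each line. The stretch-gated channel PIEZO2 was at 11.4, 6.42 and 11.2 TPM in DAOY and had 0 counts in U87 mg, at least a 281-fold difference. Its relative PIEZO1 was at 12.4, 24.6 and 16.9 TPM in DAOY and 10.4, 35.4 and 36.1 TPM in U87 mg. The samples overlapped, and although it was called (log2 fold change -1.21 ± 0.44; edgeR, adjusted p = 0.043), the call was lost without replicate 0 or 2 of DAOY (adjusted p = 0.106 and 0.0958) and without replicate 1 or 2 of U87 mg (0.121 and 0.117). TRPA1, a channel for irritants, was at 44.5, 28.3 and 28.8 TPM in DAOY and 6.995, 9.57 and 7.24 TPM in U87 mg, and MCOLN3, a lysosomal channel, at 13.0, 18.5 and 9.43 TPM in DAOY and 0, 0 and 0.116 TPM in U87 mg.

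Among pumps and exchangers 4 of 19 tested were higher in DAOY and 7 in U87 mg. The sodium pump chain ATP1B1 was at 324, 336 and 377 TPM in DAOY and 45.2, 56.3 and 38.6 TPM in U87 mg. FXYD5, a modulator of the pump, was at 245, 448 and 559 TPM in U87 mg against 40.04, 96.2 and 69.9 TPM in DAOY. The cotransporter SLC12A7 was at 1.51, 5.37 and 4.32 TPM in DAOY and 0, 0 and 0.0194 TPM in U87 mg.

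Different D-type cyclins were high in the 2 lines. CCND1 was at 372, 326 and 357 TPM in U87 mg against 93.7, 28.0 and 79.2 TPM in DAOY, and CCND2 was at 7.37, 11.5 and 23.5 TPM in DAOY and 0.0448, 0.0831 and 0.546 TPM in U87 mg. Their partner CDK6 was higher in DAOY at 48.8, 34.8 and 39.1 TPM against 10.4, 11.8 and 12.3 TPM in U87 mg, and CDK4 and RB1 were not called, with log2 fold changes of 0.11 ± 0.19 and 0.50 ± 0.20. CDKN2C, an inhibitor of both kinases, was at 14.2, 39.9 and 13.0 TPM in DAOY and had 0 counts in U87 mg, at least a 300.4-fold difference. On chromosome 9, ELAVL2 was at 2.49, 1.35 and 1.03 TPM in U87 mg and had 0 counts in DAOY, and MTAP, the neighbour of the INK4 genes, was low in both lines at 0.359 and 0.123 TPM. CDKN2A and CDKN2B were not among the gene names with values here and so were not analysed.

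CDKN2C lay in a run of neighbouring genes that were all at or near 0 in U87 mg. Such runs were sought among expressed protein coding genes, as at least 3 neighbours with at least 1 TPM in one line and less than 0.05 TPM, or 0.05 counts scaled to the library size (CPM), in the other. The search was made after the values were seen. There were 16 runs in which U87 mg was near 0 and 0 in which DAOY was. They included 5 TP53TG3 copies on chromosome 16, UGT1A8 with UGT1A10 and UGT1A6, which share exons, and LY75-CD302 with LY75. Not every run therefore held distinct neighbours. At chr1:50048014-50974633 the run held ELAVL4, DMRTA2, FAF1 and CDKN2C. FAF1, a widely expressed adaptor of the proteasome pathway that was singled out after its values were seen, was at 184, 150.4 and 164 TPM in DAOY and 0, 0 and 0.0300 TPM in U87 mg, a count ratio of 2032 (95% exact interval 562 to 16778). Other runs were IRX4, IRX2, C5orf38 and IRX1 at chr5:1877413-3601403, CXCL9, CXCL10 and CXCL11 at chr4:76001275-76041415, HOXC13, HOXC12 and HOXC11 at chr12:53938765-53977643, and HOXA6, HOXA7 and HOXA9 at chr7:27145396-27175180. In the 16 runs the mean of each gene in U87 mg was at most 0.123 TPM, and the DNA of the lines was not analysed here.

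Calcium-binding S100 and annexin genes were more often higher in U87 mg, with 11 of 21 tested against 2 in DAOY and a median of -1.06. S100A6 was at 2045, 2672 and 2555 TPM in U87 mg against 430.0, 678 and 1167 TPM in DAOY, S100A10 at 3326, 3239 and 3607 TPM in U87 mg against 669, 807 and 1175 TPM in DAOY, and ANXA1, which restrains inflammation, at 2616, 2258 and 1935 TPM in U87 mg against 602, 595 and 925 TPM in DAOY. S100A4 was higher in DAOY, at 41.4, 125 and 102.3 TPM and 2.36, 9.37 and 6.57 TPM in U87 mg. The list summed to 4110 to 6698 TPM per DAOY sample and 13651 to 14199 TPM per U87 mg sample.

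Of 20 tested imprinted genes 8 were higher in DAOY and 4 in U87 mg. PEG3, a zinc finger gene expressed from the paternal copy, was at 3.87, 12.7 and 9.49 TPM in DAOY and had 0 counts in U87 mg, NDN was at 93.9, 125 and 76.4 TPM in DAOY and 5.03, 8.82 and 7.70 TPM in U87 mg, and SNRPN at 180.4, 211 and 210.3 TPM in DAOY and 40.7, 45.2 and 47.4 TPM in U87 mg. PEG10 was higher in U87 mg at 132, 136 and 113 TPM against 25.8, 29.3 and 21.8 TPM in DAOY.

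Drug and aldehyde metabolism also differed. MGMT, the enzyme that repairs damage by temozolomide, was at 1.68, 4.47 and 3.39 TPM in DAOY and had 0 counts in U87 mg, at least a 41.2-fold difference. The glutathione transferase GSTM3 was at 150.4, 146 and 215 TPM in DAOY and 1.13, 0.487 and 0.818 TPM in U87 mg. Aldehyde and ketone metabolism went the other way in the genes named. ALDH1A3, a retinaldehyde dehydrogenase, was at 418, 358 and 488 TPM in U87 mg against 12.8, 11.8 and 28.1 TPM in DAOY, and the aldose reductase AKR1B1 at 1891, 3619 and 2388 TPM in U87 mg against 510.4, 467 and 1030.4 TPM in DAOY. AKR1C1 was at 547, 748 and 365 TPM in U87 mg against 14.1, 9.48 and 101 TPM in DAOY, and its reads can be shared with the closely related AKR1C2. Of 19 tested genes of this list 7 were higher in U87 mg and 4 in DAOY.

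Few proliferation and ribosomal genes passed the test. Of 32 tested genes of replication and mitosis 28 passed in neither direction, 2 were higher in each line, and the median was -0.21. TOP2A, a topoisomerase of dividing cells, was at 342, 555 and 136 TPM in DAOY and 156, 171 and 164 TPM in U87 mg and was not called. MCM7, a helicase subunit at replication forks, was called higher in DAOY (87.1, 236 and 79.1 TPM and 32.2, 75.2 and 55.6 TPM in U87 mg; log2 fold change 1.18 ± 0.40), but lost the call without replicate 1 of DAOY (0.56) or without replicate 0 or 2 of U87 mg (0.95 and 1.25). The mitotic kinase AURKA (-1.33 ± 0.34) and the cell cycle factor E2F1 (-2.20 ± 0.38) were higher in U87 mg. Without replicate 1 of DAOY, in which these genes were high, 12 were higher in U87 mg, without replicate 0 of U87 mg 4 were, and the number higher in DAOY was 1 without replicate 0 or 1 of DAOY or replicate 0 or 2 of U87 mg, and 0 without both replicates 0. Of 79 tested ribosomal protein genes 69 passed in neither direction, 6 were higher in DAOY and 4 in U87 mg, with a median of -0.05. RPS18 was at 1288, 2528 and 2508 TPM in DAOY and 515, 581 and 546 TPM in U87 mg, and RPS27L at 919.9, 942 and 773 TPM in U87 mg against 231, 154 and 155 TPM in DAOY. The number higher in DAOY became 12 without replicate 0 of DAOY and 11 without both replicates 0, and that in U87 mg became 8 without replicate 1 of DAOY or replicate 0 of U87 mg.

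**Figure D4:**
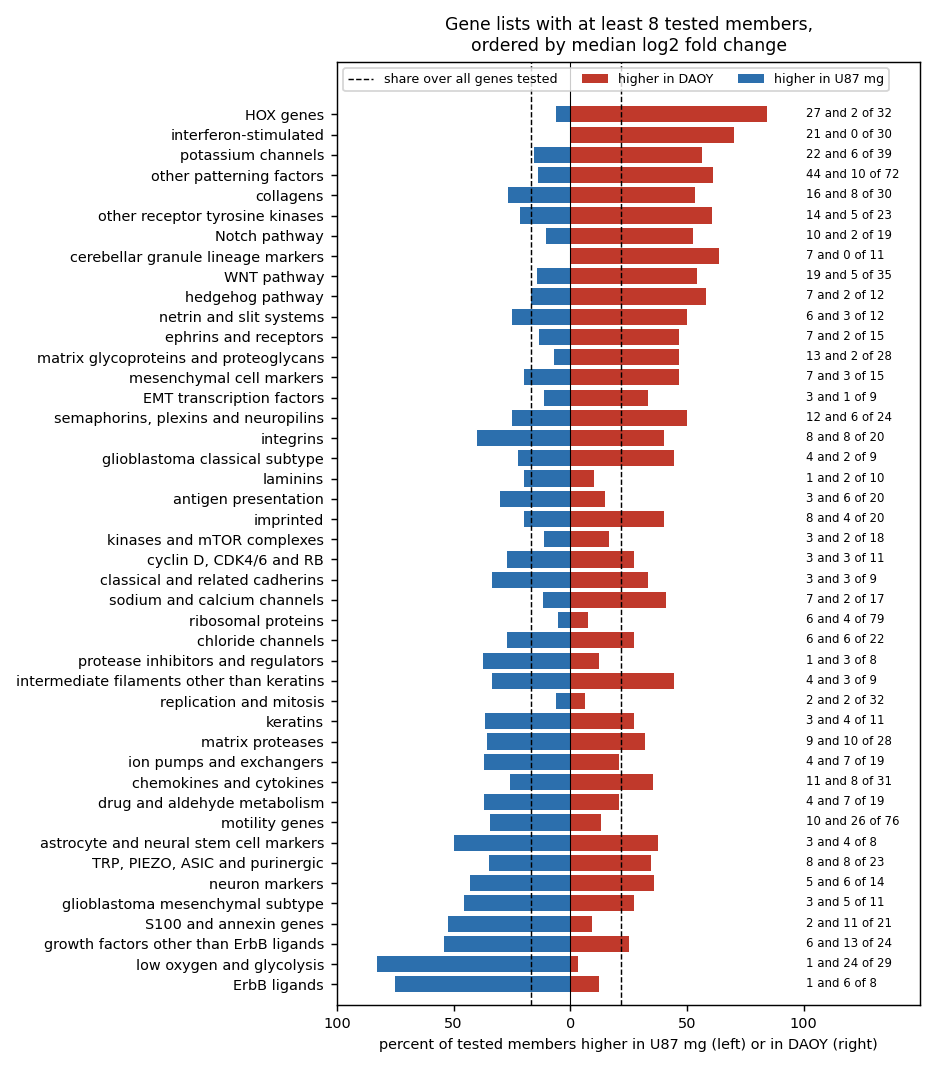
Bars give the percent of tested members of each gene list that were higher in DAOY (right) or in U87 mg (left), for the lists described with at least 8 tested members, ordered by their median log2 fold change, with the numbers of members at the right. The dashed lines mark 21.7% and 16.8%, the shares over all genes tested. HOX and interferon-stimulated genes extend furthest to the right, and low-oxygen genes and ErbB ligands furthest to the left.

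Chromosomes contributed unequally. On chromosome 6, 43.3% of 779 tested genes were higher in DAOY and 8.86% in U87 mg, with a median log2 fold change of 0.85 over the chromosome. Chromosome 14 had 38.8% and 7.95% with a median of 0.71, and chromosome 7 had 29.2% and 9.99% with a median of 0.49. In the other direction, chromosome 4 had 13.8% higher in DAOY and 30.6% in U87 mg with a median of -0.49, chromosome 10 had 13.5% and 28.7% with -0.40, and chromosome 13 had 16.9% and 30.8% with -0.35. In the separate samples at 2 h and 8 h the medians were 0.75 and 0.78 for chromosome 6, 0.67 and 0.60 for chromosome 14, and -0.79 and -0.67 for chromosome 4. Copy numbers of the chromosomes were not analysed here.

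**Figure D5:**
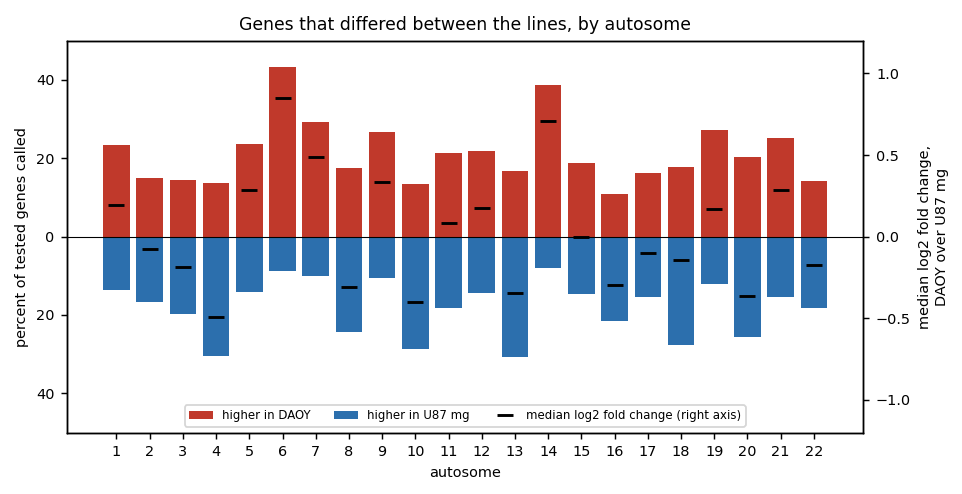
For each autosome, bars give the percent of tested genes that were higher in DAOY (up, red) or in U87 mg (down, blue), and black marks give the median log2 fold change of all its tested genes on the right axis. Chromosomes 6 and 14 have the highest medians, 0.85 and 0.71, and chromosome 4 the lowest, -0.49.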

How the data were processed

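RNA was sequenced from poly-A selected, stranded libraries as single-end reads. Per the labels and the study's methods, the authors trimmed the reads (FastQC Toolkit 2.0.0) and assigned them to GENCODE transcripts of GRCh38 with kallisto 0.43.0. The deposited table holds, per transcript and sample, estimated counts and TPM (scaled to effective transcript length and to the library total). Fractional values made up 85.7% of the nonzero counts. Its columns of the authors' own Sleuth comparisons (fold changes, p-values and q-values) were not used. A strand setting is not given in the sources used here, so that overlapping and antisense genes, like close paralogs, are uncertain.

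Of 145326 transcripts, 4495 on chromosomes X and Y were left out, with 17 names found on several chromosomes, and 140586 were summed to 31085 gene names, of which 2642 cover more than 1 gene identifier. These steps removed 2.48 to 2.79% of the counts per sample. Sums were rounded to whole numbers, filtered with filterByExpr, scaled by TMM and tested with edgeR 4.0.16 in R 4.3.3 (quasi-likelihood test, Benjamini-Hochberg adjustment over all genes tested, 2-sided). Samples of each time were fitted separately. Values are TPM per sample or mean ± SD (n = 3), and log2 fold change ± SE. Where a line had 0 counts the fold is a lower bound against a floor of 3 counts over the group, and where it had 1 to 3 counts the ratio is given with an exact 95% interval. Floors and intervals cover counting error only. The fits were tested on simulated data.

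Genes were named by a rule. It takes, per direction, the 10 protein coding genes with the largest called difference among those with non-overlapping samples and a mean of at least 20 TPM in the higher line, and up to 6 members per gene list by level and by fold change. A gene counted as protein coding by the type of its most abundant transcript, and COL3A1 was not among the 10. BDNF, FAF1, RPL9P9 and the runs of neighbouring genes were chosen after their values were seen. The gene lists and the comparison were chosen with earlier results of these data known, and the lists are described by counts and medians only. Alternatives were DESeq2 1.42.0, RLE scaling, limma 3.58.1 on log2(TPM + 1) and log2(TPM + 0.1), counts freed of transcript length, no filter, a filter of at least 10 counts per sample, all 18 samples in one fit, a replicate block, protein coding transcripts alone, transcripts, no fold threshold, each sample left out, and, chosen after seeing the data, both samples numbered 0 left out. Promoters are from RefSeq (GRCh38.p14), and 99.3% of the transcripts were matched to GENCODE 29 for coordinates. Some items are not reported here.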

Additional observations from a re-analysis of the deposited data

Results flagged for a closer look

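In a single fit of all 18 samples to 15869 genes, the difference between the lines at 8 h was compared with that at 0 h. It differed for BDNF and KRT80, the 2 genes of this fit with an adjusted p under 0.05 (edgeR's quasi-likelihood test). At 2 h there were 0 such genes, with 1027 at an unadjusted p under 0.05, against 1415 at 8 h.

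BDNF, a neurotrophic factor, was higher in U87 mg at 0 h, at 15.9, 16.8 and 18.5 TPM in U87 mg against 1.96, 2.34 and 1.65 TPM in DAOY. Its log2 fold change of DAOY over U87 mg was -3.08 ± 0.24 at 0 h, -3.12 ± 0.19 at 2 h and -1.07 ± 0.16 at 8 h. The change from 0 h to 8 h was 2.02 on the log2 scale (edgeR, adjusted p = 0.0027). The means at 8 h were 5.21 TPM in DAOY and 10.8 TPM in U87 mg.

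KRT80, a keratin, went from a log2 fold change of -6.10 ± 0.35 before the field to -4.76 ± 0.20 at 2 h and -3.84 ± 0.22 at 8 h, a change of 2.27 (edgeR, adjusted p = 0.034). The mean in DAOY was 0.271 TPM at 0 h and 1.25 TPM at 8 h, and that in U87 mg was 18.3 and 17.3 TPM. Exposure and longer culture in the channel cannot be told apart in these samples.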

How the results depend on the processing

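Of 206 named genes that were called, 202 kept call and direction in every gene-level alternative in which they could be tested. VIM, PIEZO1, MCM7 and GAD1 did not, and were not called under limma on log2(TPM + 1), among other alternatives. The fit of transcripts and the removal of the fold threshold were compared by the total number of calls only. Of 3878 values of named genes under alternatives 3834 stayed on their side of the threshold, 22 lost it, 22 gained it and 0 reversed. The counts of genes higher in DAOY and in U87 mg at 0 h (3186 and 2455) were 3128 and 2501 with DESeq2 and 2768 and 1916 with limma on log2(TPM + 1), and without 1 library they lay between 3127 and 3504 and between 2177 and 2740. At 2 h these ranges were 3436 to 3606 and 2499 to 2697, and at 8 h 3457 to 3613 and 2512 to 2716. With at least 10 counts in every sample, which by its construction removes genes silent in one line, the counts fell to 1754 and 1600 at 0 h, and those higher in DAOY to 1764 at 2 h and 1839 at 8 h. With no fold threshold they rose to 5068 and 4361 at 2 h, and to 4377 for U87 mg at 8 h. Without both samples numbered 0 they were 3378 and 2650 at 0 h. Same-numbered samples of the lines correlated by 0.466, 0.302 and 0.003 in their deviations from the group mean. Replicate 1 of DAOY correlated about as well with replicate 2 of U87 mg (0.318). Between a replicate 0 and the other numbers of the other line the correlation was -0.451 to -0.108. The numbers were not taken to pair the samples in the main fit, and a factor shared by the replicates 0 was not tested. With the replicate number as a block, 3222 and 2610 genes were called at 0 h, and 0 of the called named genes lost its call. In that fit 9660 genes had an unadjusted p under 0.05 by edgeR, against 8395 without the block. Depth limits genes with few counts: those below the filter were not tested, and a count of 0 in a line is a bound and not an absence.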

Other observations

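Gene lists outside the comparisons above were small or mixed. Of 8 oligodendrocyte lineage markers, 6 were tested, 2 were higher in DAOY (1 without replicate 2 of U87 mg) and 1 in U87 mg (2 without replicate 1 of DAOY, and 0 without replicate 0 or 2 of DAOY, replicate 1 or 2 of U87 mg or both replicates 0). Of 12 epithelial markers 4 were tested, with 2 higher in DAOY and 1 in U87 mg, and the list summed to 101 to 213 TPM per DAOY sample and 8.84 to 12.2 TPM per U87 mg sample. Of 9 tested genes of the classical glioblastoma pattern 4 were higher in DAOY and 2 in U87 mg. Of 19 connexins and pannexins, the channels that join cells, 6 were tested, 3 were higher in DAOY and 1 in U87 mg (0 without replicate 1 or 2 of DAOY or replicate 0 of U87 mg).

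Among all genes tested, RPL9P9, a processed copy of a ribosomal protein gene, combined a mean of 1814 TPM in DAOY with 0 counts in U87 mg. Its reads can be shared with RPL9 and other copies, so that the assignment is uncertain.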
